A study of Mus musculus with 48 samples.

Results

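The list examined here holds off-target V(D)J junctions of mouse pro-B cells whose name gives an 800 kb inversion (800kb_INV) and treatment with IAA and Dox. Its members are the junctions on chromosome 12 between 114400000 and 117400000 of mm9, a window over the immunoglobulin heavy chain locus (Igh), with each combination of position, strand and bait end counted once. The list held 620 such junctions, against 71053 distinct window junctions over the 59 lists of the series. It was set against a list without inversion, with 592 junctions, and a list of a whole-Igh inversion, with 572. The members were chosen by the list's name and by position, with no threshold on a measured value.

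The libraries were made by LAM-HTGTS, which copies DNA outward from a primer at a bait, here the JH1 to JH4 segments, and sequences across each joint into the DNA joined to it, the prey. The cells were pro-B lines transformed by v-Abl, whose kinase is blocked by STI-571. The genotype of the no-inversion sample was Wapl-degron, OsTIR1, Emu-Bcl2 and RAG1 deficient, and the genotype of the whole-Igh inversion samples also named Single Igh. The labelled samples were infected with a RAG1/2 retrovirus, kept 1 day in 3 uM STI-571, then 3 days in 150 uM IAA, 3 uM STI-571 and 2 mg/mL Dox. An untreated list of the Wapl-degron line, kept 4 days in STI-571 alone, is given as background. No sample label used here describes the cells of the 800 kb list, so its genotype, the ends of its inversion and whether it is 1 clone are not given in the sources used here, and its treatment is known from its name alone. Nor do the labels say how off-target junctions were selected.

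V(D)J recombination joins D and J segments and then a V segment. The RAG endonuclease sits at a recombination centre over the JH segments and cuts at recombination signal sequences (RSSs), which open with a heptamer whose consensus is CACAGTG. Cohesin extrudes chromatin loops past that centre, and RAG reads the passing DNA mainly for RSSs in convergent orientation, including weak ones outside annotated segments. Wapl takes cohesin off DNA, and the auxin IAA, through OsTIR1, depletes a degron-tagged Wapl. The strand of a prey tells which side of a break was kept. A plus-strand prey keeps the bases at higher mm9 positions, and a minus-strand prey those at lower ones. VH genes lie on the minus strand of mm9, with JH and D at the low end of the locus and VH at positions 114812453 to 117238672 (112 annotated genes).

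The list pooled 3 libraries, told apart by sequencing run (runs 113, 115 and 119) and by a common start of the reads. Nothing shows whether they came from separate cultures. None of its read names was found in the single-library lists. The no-inversion list pooled Wapl-degron IAADox replicates 1 and 2 (runs 110 and 119) and, despite its title, single igh IAADox replicate 1 (run 115). The whole-Igh list had 4 read starts over runs 115 and 119, and 4059 of its 10085 lines were in no single-library list used here. Some libraries repeat each other's joints. From the end of the D region to the end of chromosome 12, runs 110 and 119 of the no-inversion list shared 43 joints of 92 and 107, although their labels name separate replicates, and each whole-Igh library of run 115 shared 19 or 33 joints with 1 of run 119. All of these also had the same length of insertion or microhomology. The other pairs of libraries, among them all pairs of the 800 kb list, shared at most 5 joints, of which at most 1 had the same length. Libraries that repeat joints are counted below as 1 source, which leaves 3 sources in the 800 kb list, 2 in the no-inversion list and 2 in the whole-Igh list. Pooled counts take each joint once and are not touched by this. The 800 kb list had 12614 lines and 6625 distinct junctions over all chromosomes. Prey with a run of at least 15 G made up 5271 of these, against 6037 of 7279 in the no-inversion list and 0 of 1938 in the whole-Igh list, and none lay in the window. Outside chromosome 12 the 800 kb list kept 543 distinct junctions without such a run, of which 145 were on chromosome 6 and 116 of those between 67505630 and 70676751, the span of the 105 annotated Igk genes. Each condition is 1 pooled list, so no test was possible. Intervals are exact (Clopper-Pearson) at 95% and cover counting error only, since the reads carry no molecular identifiers.

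The sequences below are mm9 reference bases at junctions that the results turn on: recurrent minus-strand positions, the most used plus-strand positions on either side of them, and the most used positions past the VH genes. Each line reads 5′ to 3′ from 20 kept prey bases across the junction into 40 bases of the side that was lost. Capitals mark the 7 bases that begin with the first CAC at 0 to 10 bases from the junction, and a line without capitals has none there.
minus junction 116360119, chr12:116360100-116360159, plus strand of mm9: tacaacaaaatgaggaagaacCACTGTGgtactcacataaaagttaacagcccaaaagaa
minus junction 116843830, chr12:116843811-116843870, plus strand of mm9: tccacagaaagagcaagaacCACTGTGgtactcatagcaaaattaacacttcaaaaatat
minus junction 116997878, chr12:116997859-116997918, plus strand of mm9: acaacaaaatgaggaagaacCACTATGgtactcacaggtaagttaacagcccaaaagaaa
plus junction 115904083, chr12:115904043-115904102, minus strand of mm9: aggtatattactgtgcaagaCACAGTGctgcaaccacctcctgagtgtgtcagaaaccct
plus junction 115906197, chr12:115906157-115906216, minus strand of mm9: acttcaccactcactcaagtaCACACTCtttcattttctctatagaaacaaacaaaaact
plus junction 115987736, chr12:115987696-115987755, minus strand of mm9: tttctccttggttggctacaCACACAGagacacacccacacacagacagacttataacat
plus junction 116029177, chr12:116029137-116029196, minus strand of mm9: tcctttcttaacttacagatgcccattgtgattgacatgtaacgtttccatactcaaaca
plus junction 117193810, chr12:117193770-117193829, minus strand of mm9: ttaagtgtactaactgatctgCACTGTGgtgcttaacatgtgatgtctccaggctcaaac
plus junction 117442329, chr12:117442289-117442348, minus strand of mm9: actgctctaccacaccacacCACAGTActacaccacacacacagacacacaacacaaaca
plus junction 118596806, chr12:118596766-118596825, minus strand of mm9: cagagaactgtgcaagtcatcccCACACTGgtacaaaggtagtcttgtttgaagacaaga
The 3 minus-strand lines are close relatives. The lines at 116360119 and 116843830 share an unbroken run of 20 bases, aagaaccactgtggtactca, around the heptamer-like letters. In mm9 that run occurs 9 times between 116360119 and 116997878 and 2 times between there and 117400000, always in this orientation, and 0 times from the D region to 116360119. The lines at 116360119 and 116997878 were identical at 51 of 55 aligned bases. The line at 115904083 carries the full consensus heptamer, and its last 9 kept bases, tgtgcaaga, also stand in the last 20 bases of 64 of the 112 annotated VH genes, although no gene is annotated there. The line at 116029177 has no CAC in reach.

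Between the D region and the end of the window the 800 kb list split into 3 stretches: plus-strand junctions nearest D, a stretch almost without them in which minus-strand junctions prevailed, and plus-strand junctions again beyond it. The interval with the highest excess of minus over plus junctions ran from 116360119 to 116997878, 637.8 kb that hold 23 annotated VH genes from Ighv1-52 to Ighv1-72. It held 9 minus-strand and 1 plus-strand junction, so 90.0% were minus (interval 55.5% to 99.7%). On its D side 4 of 117 junctions were minus, 3.42% (0.939% to 8.52%), and beyond it 4 of 65, 6.15% (1.70% to 15.0%). Because the interval was placed by these strands, its minus share describes the list and tests nothing.

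**Figure D1:**
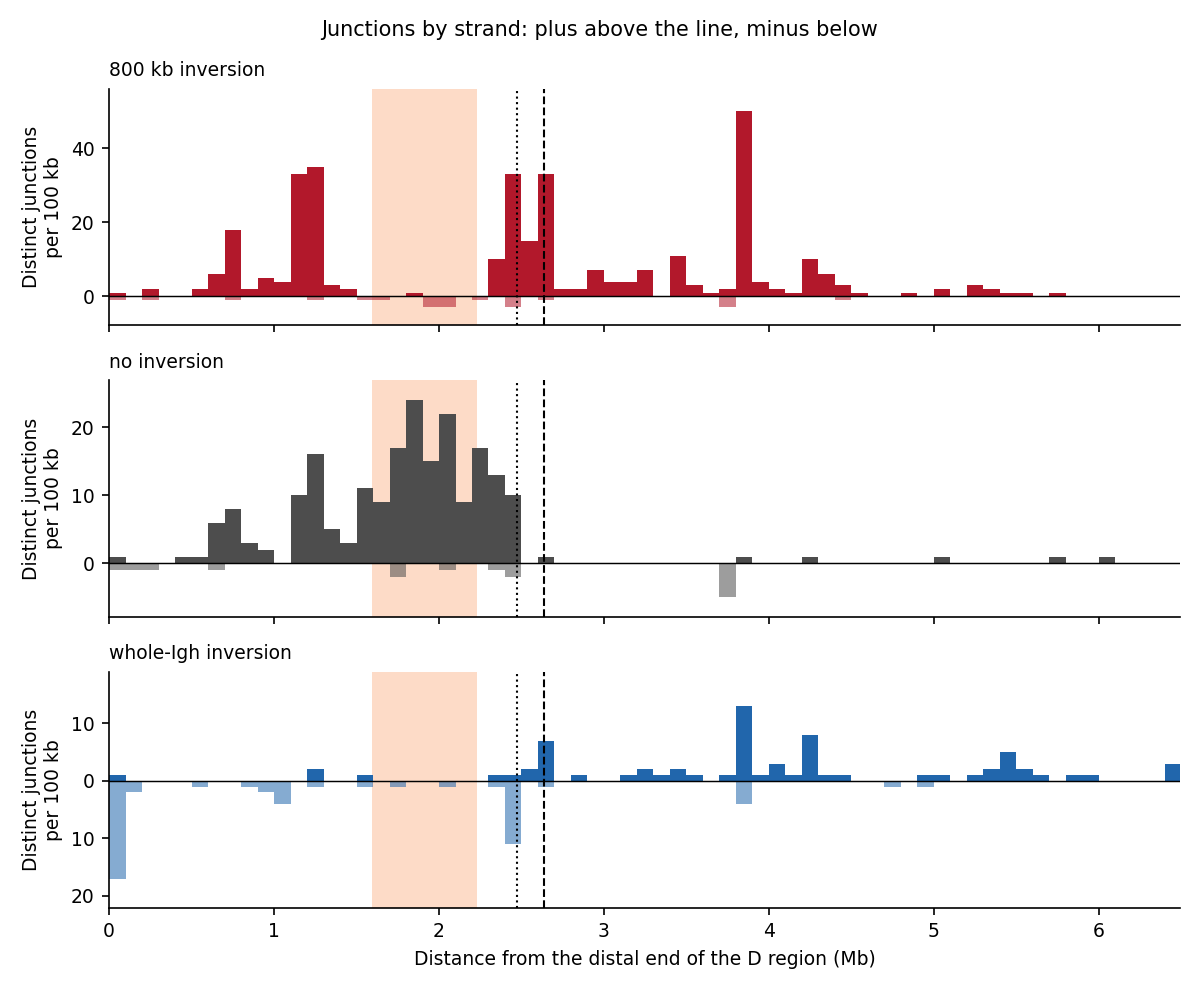
Distinct junctions per 100 kb from the distal end of the D region to the end of chromosome 12 in the 3 lists, plus strand above the line and minus strand below, with vertical scales that differ between panels. The shaded interval is the minus-strand segment of the 800 kb list (9 minus, 1 plus), where the no-inversion list has 102 plus junctions; the dotted line marks the last VH gene and the dashed line the window's end, past which the 800 kb list has 161 plus junctions.

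The same coordinates in the no-inversion list held 102 plus-strand and 3 minus-strand junctions, 2.86% minus (0.593% to 8.12%). In the whole-Igh list they held 0 plus and 3 minus. Unlike the 800 kb list, the whole-Igh list was mostly minus on either side as well, with 28 of 32 junctions minus on the D side (87.5%, interval 71.0% to 96.5%) and 13 of 18 beyond (72.2%, 46.5% to 90.3%). Of the 28, however, 17 lay at 1 site, 114835527. Without that site 75.0% of the 36 junctions of the whole-Igh list beyond the D region were minus. Outside the segment the prevailing strand of the 800 kb list was that of the no-inversion list, and inside it that of the whole-Igh list. The untreated list had 9 junctions in all beyond the D region, 8 plus and 1 minus, which is too few to compare.

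The junctions bracket the ends of the segment only loosely. The nearest plus-strand junctions around it lay at 116256550 and 117107295, which is 103.6 kb from the first minus-strand junction on the D side and 109.4 kb from the last on the distal side. Each of these brackets rests on 1 distinct minus-strand junction, and the flanks hold minus-strand junctions as well. With 1 library left out at a time, the D-side bracket was 103.6 kb without run 113, 148.6 kb without run 115 and 225.7 kb without run 119, and the distal one 263.5, 109.4 and 122.1 kb. The no-inversion list had 9 and 18 plus-strand junctions in those brackets. From 116256550 to 117107295, 850.7 kb with 33 annotated VH genes, the 800 kb list held 1 plus-strand junction and the no-inversion list 129. This was picked as the widest stretch with at most 1 plus-strand junction in the 800 kb list. Its count of 1 was thus set by the choice and is a description. The lone plus junction, at 116582752, was 9027 bp from Ighv1-59 and came from run 119 with 1 line and no CAC in reach. In the no-inversion list plus-strand positions in that stretch stood a median of 2.30 kb apart. Its widest stretch without a plus-strand junction, 367.4 kb, lay elsewhere, from 114863781 to 115231225. On that same measure the 800 kb list had 524.5 kb, from 116582752 to 117107295.

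All 3 libraries contributed minus-strand junctions to the segment. Run 113 gave 4 minus and 0 plus, run 115 gave 1 minus and 0 plus, and run 119 gave 4 minus and 1 plus. The interval was also found from pairs of libraries and read in the library left out. Without run 113 it shortened to 483.7 kb (116360119 to 116843830), where run 113 had 3 minus and 0 plus. Without run 119 it stayed at 116360119 to 116997878, where run 119 had 4 minus and 1 plus. Without run 115 it began at 116405123, and run 115 had no junction in it. The 9 minus-strand junctions are few, and the ends move with the library left out.

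The minus-strand sites of the segment were read at single bases or a few bases. The site with most junctions, at 116843830, had 3 distinct junctions in 5 lines, all of run 119, and lay 1386 bp from Ighv1-67. The others had 1 distinct junction each: 116360119, 1728 bp from Ighv1-50, in run 115; 116405123, 835 bp from Ighv8-6, 116739752, 5483 bp from Ighv1-63, and 116757556, 11368 bp from Ighv1-64, in run 113. The positions 116731541, 2295 bp from Ighv1-63, and 116997878, 1251 bp from Ighv1-72, had 1 distinct junction each as well. All were intergenic in the annotation, and the nearest to any VH gene was 835 bp away. Of the 8 distinct positions 6 had a CAC at 0 to 10 bases (75.0%, interval 34.9% to 96.8%), and 3 had it on the opposite strand. The full consensus CACAGTG stood at 0 of 8 in the outward reading and at 3 of 8 on the opposite strand.

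Some of these positions recurred in other libraries of inverted loci. The whole-Igh list had a minus-strand junction within 20 bp of 116360119 and of 116843830, and the no-inversion list had no minus-strand junction at any of them. On the plus strand, however, the no-inversion list had 3 distinct junctions in 9 lines at 116360128 to 116360129. Their CACAGTG is the CACTGTG of 116360119 read on its other strand, so that sequence was used without an inversion too. Full lists with the JH bait were searched as well. They include primary pro-B cells from bone marrow with the genotype C57BL/6, RAG1 deficient, without (WT BM) or with an Igh Inversion (INV BM), cultured with IL-7 and SCF and purified on B220 beads. Their protocol text also lists STI-571, without saying to which cells it applies, and names neither IAA nor Dox. The 4 INV BM libraries held 95 distinct minus-strand junctions within 20 bp of 116843830, in all 4 libraries. They held 4 near 116997878, in 3 libraries, and 4 near 116360119, in 1 library. The 18 libraries without an inversion in their label, which mix bone marrow cells and v-Abl lines, untreated and treated, held 1 near 116843830 and none at the other positions. The 3 full lists of single Igh INV IAADox, with 1 to 15 junctions in the segment, held none. The remaining positions were found in no full list. Unlike the pooled whole-Igh list, these full lists were mostly plus in the segment: 27.1% to 29.6% of 292 to 638 junctions were minus in INV BM, and 0 of 1, 2 of 15 and 2 of 13 in single Igh INV IAADox. In the 18 other libraries at most 1.97% were minus.

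With strand set aside, the segment was also thin in junctions. It held 10 of the 192 window junctions beyond the D region in the 800 kb list, 5.21% (2.53% to 9.37%), against 105 of 213 in the no-inversion list, 49.3% (42.4% to 56.2%). The interval was placed where the 800 kb list has few plus junctions, and nearly all junctions are plus, so its low content, pooled, by library and per D-region junction, was fixed in part by that choice and is a description. The D side held 60.9% (53.7% to 67.9%) against 31.9% (25.7% to 38.6%), and the distal part 33.9% (27.2% to 41.0%) against 18.8% (13.8% to 24.7%). By library, the share inside the segment was 6.45%, 5.00% and 4.50% in runs 113, 115 and 119 of the 800 kb list and 51.7% and 44.4% in the 2 sources of the no-inversion list, runs 110 with 119 and run 115. Within the runs that both lists share, the values were 5.00% and 44.4% in run 115 and 4.50% and 53.3% in run 119. The D-side shares were 62.9%, 60% and 59.5% against 31.8% and 31.7%. Beyond the segment they were 30.6%, 35.0% and 36.0% against 16.6% and 23.8%.

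**Figure D2:**
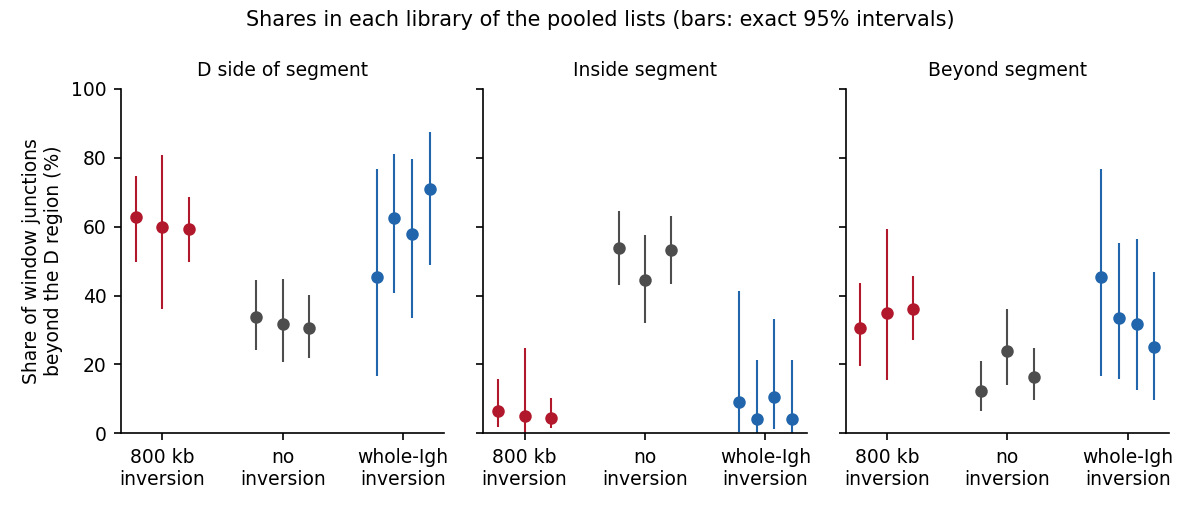
Share of window junctions beyond the D region that lay on the D side of the segment, inside it and beyond it, in each library of the 3 pooled lists, in percent; points are libraries and bars exact 95% intervals from counts. The 3 libraries of the 800 kb list lie between 4.50% and 6.45% inside the segment, and the 3 of the no-inversion list, of which the first and last repeat joints, between 44.4% and 53.9%.

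These shares are parts of 1 total, so a low segment lifts the rest. Counted per 100 junctions in the D region, which had 312 junctions in the 800 kb list and 205 in the no-inversion list, the flanks differed by less than counting error. The D side had 37.5 (30.1 to 46.5) against 33.2 (24.8 to 43.8), and the part beyond the segment 20.8 (15.7 to 27.3) against 19.5 (13.5 to 27.5), with overlapping intervals. Their order turned with the run. The D side had 23.5 against 33.3 in run 115 and 39.3 against 28.8 in run 119, and the part beyond the segment 13.7 against 25 in run 115 and 23.8 against 15.3 in run 119. The segment had 3.21 (1.52 to 5.97) against 51.2 (40.1 to 65.1). The whole-Igh list was low in all 3, at 8.38 (5.65 to 12), 0.785 (0.161 to 2.31) and 4.71 (2.76 to 7.55). The flanks of the 800 kb list stood above the whole-Igh list, and the intervals of its segment overlapped. By source the segment had 3.31, 1.96 and 2.98 per 100 in the 800 kb list and 1.09 and 0.429 in the whole-Igh list, so the sources did not overlap, on 1 to 5 junctions each.

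Past the last VH gene the order changed. Between 117238673 and 117400000, which holds Zfp386 and Vipr2, the 800 kb list had 23 plus-strand and 1 minus-strand junction, the no-inversion list 1 plus, and the whole-Igh list 4 plus and 2 minus. From the end of the window to the end of chromosome 12 at 121257530, a stretch outside the window that was added after its values were seen, the 800 kb list had 161 plus-strand and 4 minus-strand junctions. The no-inversion list had 6 and 5, the whole-Igh list 61 and 6, and the untreated list 0 and 1. All 5 minus-strand junctions of the no-inversion list and 3 of the 4 of the 800 kb list were prey with a run of G, and none of the plus-strand ones was. Per 100 D-region junctions the plus-strand count was 51.6 (42.4 to 62.6) in the 800 kb list, 2.93 (1.06 to 6.48) in the no-inversion list and 16.0 (12 to 21) in the whole-Igh list, and no 2 of these intervals overlap.

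**Figure D3:**
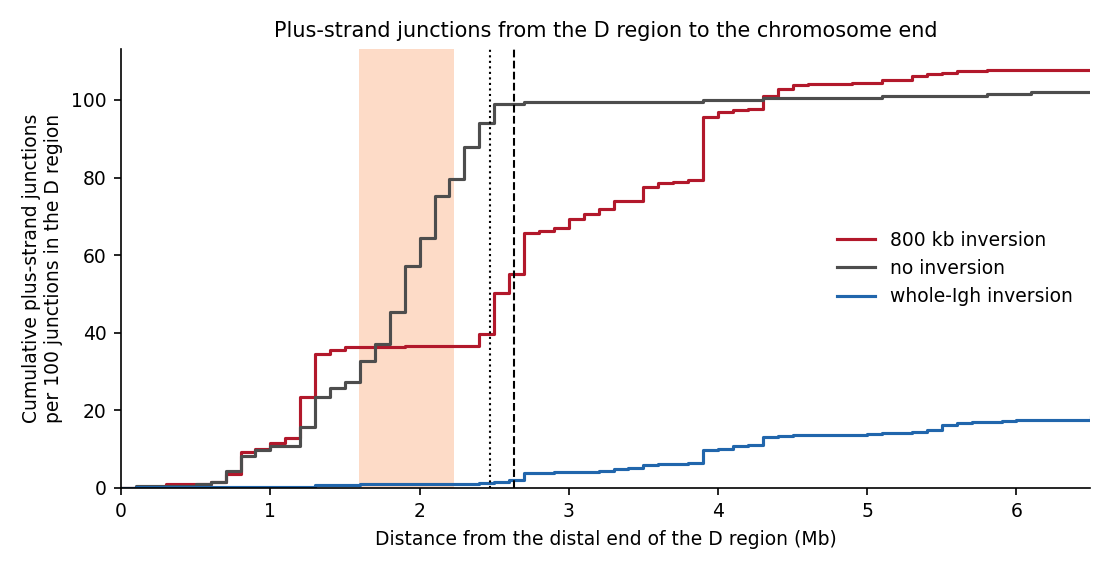
Cumulative plus-strand junctions per 100 junctions in the D region, by distance from the distal end of the D region in Mb, for the 3 lists; the shaded interval is the minus-strand segment, the dotted line the last VH gene and the dashed line the window's end. The no-inversion line climbs through the segment and is nearly flat past the last VH gene, while the 800 kb line is flat in the segment and climbs past the window, where it gains 51.6.

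The excess past the window was present in each library of the 800 kb list. Junctions of either strand per 100 in the D region were 49.6, 52.9 and 48.8 in runs 113, 115 and 119 of the 800 kb list. They were 6.08 and 5.00 in the 2 sources of the no-inversion list and 14.8 and 17.6 in those of the whole-Igh list. In full lists with the JH bait, plus-strand junctions past the window per 1000 junctions from the D region to the window's end were 148 to 157 in the 3 single Igh INV IAADox libraries and 74.7 to 82.5 in the 4 INV BM libraries. In the 18 libraries without an inversion in their label they were at most 1.37. The single Igh INV IAADox rates rest on 5, 39 and 35 junctions over 32, 249 and 236. IAADox libraries without an inversion in their label had 1 to 4 over 1544 to 3756. The INV BM libraries had 179 to 281 over 2268 to 3764. Between the single Igh INV IAADox libraries and the IAADox libraries without an inversion, both the counts and the bases differed. The part of the base in the difference between these rates was not tested. These rates and those of the off-target lists have different denominators and are not compared with each other.

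The plus-strand junctions past the window were spread unevenly, with few in the far part. By steps of 500 kb from 117400000 the 800 kb list had 48, 22, 60, 20, 3, 7, 1 and 0, and the whole-Igh list 8, 6, 19, 10, 2, 10, 3 and 3. Of the 161 in the 800 kb list, 150 lay within the first 4 steps. They spread over 84 sites, and 62 lay within protein-coding genes, all of them outside exons. Counts were not set against gene length, so they show no preference for genes. Ptprn2, which encodes a receptor-type tyrosine phosphatase family protein of secretory granules, spans 117724193 to 118516640 and had 31. Rapgef5, a guanine nucleotide exchange factor, had 9, Dnah11, an axonemal dynein heavy chain, 6, and Ncapg2, a condensin II subunit, 5. Smaller numbers lay in Wdr60, Esyt2, Cdca7l and Abcb5. The most used site, at 118596806 between Ptprn2 and Rapgef5, 80.2 kb from Ptprn2, held 37 distinct junctions in 83 lines, with 19, 4 and 17 in runs 113, 115 and 119. It held 1 in the no-inversion list and 7 in the whole-Igh list, where it was the most used site as well. Without it 124 plus-strand junctions were left, and without run 119 the count of 161 was 85. Next came 117442329, 3.19 kb from Wdr60, with 11 distinct junctions against 0 and 2, and 117441230, with 6 against 0 and 1. The other sites had at most 4.

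On the D side of the segment the plus-strand junctions of the 800 kb list were bunched. From 1.1 to 1.3 Mb past the D region they numbered 33 and 35 per 100 kb. The no-inversion list had 10 and 16 there, the 16 being its highest D-side count too, and the whole-Igh list 0 and 2. Per 100 D-region junctions, the cumulative plus-strand count rose from 12.8 at 1.1 Mb to 34.6 at 1.3 Mb. In the no-inversion list it rose from 10.7 to 23.4. This stretch and the sites below were named because they were the most used in the 800 kb list. The most used site, 115906197, 10209 bp from Ighv1-15, had 11 distinct junctions, 5 in run 113 and 6 in run 119. The no-inversion list had 2 there, and the whole-Igh list 0. At 115987736, 2819 bp from Ighv1-22, there were 9 against 2 and 1. At 115904083, 8095 bp from Ighv1-15, the 800 kb list had 8 and the other lists 0. At 116029177, 2161 bp from Ighv1-26, it had 8 against 2 and 0. Run 115 had none at any of these 4 sites. It had 20 junctions beyond the D region in all.

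Beyond the segment no site had more than 3 distinct junctions. Of the 6 sites with 3, the first 4 by position were 117193810 and 117193860, 2768 and 2818 bp from Ighv1-82, 117198125, 3903 bp from Ighv1-83, and 117207570, 5252 bp from Ighv1-83. The no-inversion list had 3 and 2 at the pair near Ighv1-82 and 0 at the other sites, and the whole-Igh list had 0 at all 4. The remaining 2, at 117292890 in an intron of Zfp386 and at 117355494 in an intron of Vipr2, had 0 in both other lists and are named after their values were seen. Positions of the plus strand were shared in part: 42 of 87 on the D side (48.3%) lay within 20 bp of a no-inversion position, as did 14 of 56 beyond the segment (25%). Seen from the no-inversion list, the shares were 36.7% of 60 and 40% of 30. For reference, 127 of 170 plus-strand positions of the 800 kb list in the D region (74.7%) lay near a no-inversion position. Past the window 11 of 121 did (9.09%). Past the window 27 of 121 positions (22.3%) were shared with the whole-Igh list, which is 27.3% of its own 55 seen from the other side.

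The 8 most used sites of the window lay in the D and JH regions, and each was present in the 3 lists. The sites at 114721410 and 114724026, 1007 and 3623 bp from Ighd1-1, had 35 distinct junctions each in the 800 kb list, 20 each in the no-inversion list, and 51 and 44 in the whole-Igh list. The site at 114723546, 3143 bp from Ighd1-1, had 27, 24 and 37. The sites at 114715079, 1452 bp from Ighd2-3, and at 114668795, 46 bp from Ighd4-1, had 21 each in the 800 kb list, 18 and 16 in the no-inversion list, and 31 and 7 in the whole-Igh list. The 3 sites at the JH segments, 114667990 by Ighj1, 114667677 by Ighj2 and 114667301 in Ighj3, had 23, 18 and 18 against 38, 26 and 32 and against 32, 20 and 24. In the 800 kb list 3597 of the 3623 lines of the JH region had prey that overlapped the bait on the read by more than 10 bases, against 15575 of 15659 and 4575 of 4647 in the other lists, and no line beyond the D region did. The site at 114707400 in the D region, with 18, 14 and 30, ties with the last of these 8. Of the 16 ratios of window shares for the 8 sites, 4 had counting intervals that leave out 1, with no adjustment for their number: 114667990 and 114667301 were lower than in the no-inversion list, 0.578 (0.329 to 0.995) and 0.537 (0.284 to 0.986), and against the whole-Igh list 114668795 was higher, 2.77 (1.13 to 7.71), and 114721410 lower, 0.633 (0.400 to 0.993). JH counts depended on the list: a further pooled off-target list without inversion, of Wapl-degron IAADox replicates 1 to 3, had 21 of 550 window junctions in the JH region (3.82%), against 96 of 620 (15.5%) in the 800 kb list and 157 of 592 (26.5%) in the no-inversion list used here, so the JH difference turns against it. Its segment held 49.0% of its 255 junctions beyond the D region, and 4.0% of those were minus. These are in large part the same junctions, since replicates 1 and 2 are in both lists. The part of the overlapping lines in the shares of the whole window was not tested, and the shares by region above use the D region or the junctions beyond it as their base, while the site ratios and calls use the whole window.

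Sites with at least 10 distinct junctions in either list were compared by their share of window junctions, and a difference of at least 4-fold was called. Each site called reached 10 only in the list where it was higher. The filter favours such contrasts, so the calls and their ratios are descriptions. Against the no-inversion list 1 of 15 sites was called higher (6.67%) and 0 lower (0%). The plus-strand site 116771963 in the segment had 0 junctions against 11, but with 3 counts for 0 its ratio was bounded only at 0.260, so it could not reach 4-fold. The site called was 115906197, with 1.77% of window junctions against 0.338%, a ratio of 5.25 with a counting interval of 1.15 to 48.8. Against the whole-Igh list 1 of 16 sites was called higher (6.25%) and 1 lower (6.25%). The higher one was 114704588 in the D region, with 10 junctions against 2, a ratio of 4.61 (0.983 to 43.3). The lower one was the minus-strand site 114835527, 130 bp from Ighv5-4 at the D end of the VH genes, with 1 junction against 17, a ratio of 0.0543 (0.00130 to 0.346). All 4 libraries of the whole-Igh list had it, with 4 to 11 distinct junctions each, some of them repeated between libraries. On the D side 115906197 was the site nearest the segment with at least 10 junctions in the 800 kb list. Beyond the segment, and on the minus strand, no site reached 10 junctions in the 800 kb list.

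Junction positions in the list lay beside RSS-like letters. Of the 144 distinct plus-strand positions beyond the D region 115 had CAC at 0 to 10 bases, read away from the kept prey (79.9%, interval 72.4% to 86.1%), and 64 had it on the opposite strand of the same bases (44.4%). Among all positions of that stretch of the chromosome, read both ways, 13.8% had it. The no-inversion list gave 84.3% of 166 positions (77.9% to 89.5%). Past the window 114 of 121 positions had it in the 800 kb list (94.2%, 88.4% to 97.6%), 31 on the opposite strand (25.6%), and 14.7% of all positions there. The full consensus CACAGTG was less common, at 12.5% of the 144 positions and 7.44% of the 121, where 0.147% and 0.157% of all positions have it. On the opposite strand of the same bases it stood at 10.4% and 13.2%. Past the window the intervals overlapped, at 7.75% to 20.6% on the opposite strand and 3.46% to 13.7% in the outward reading. CACTGTG, a frequent heptamer at the sites named, reads CACAGTG on its other strand.

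**Figure D4:**
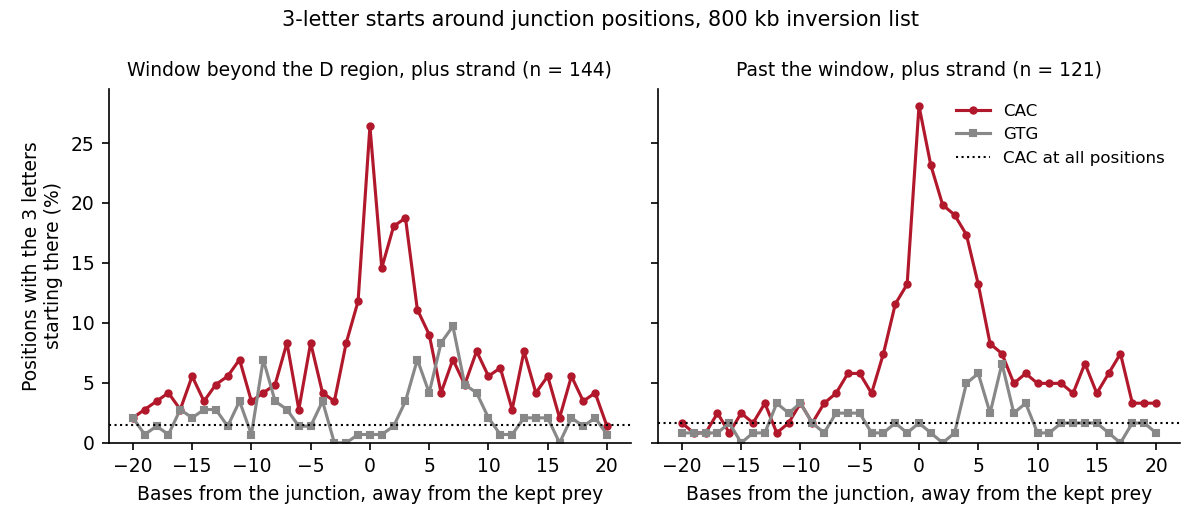
Percent of distinct plus-strand junction positions of the 800 kb list at which CAC (circles) or GTG (squares) begins, by distance in bases from the junction away from the kept prey, for the window beyond the D region (144 positions) and past the window (121); the dotted line is CAC at all positions. CAC peaks at 0 bases, at 26.4% and 28.1%, where all positions give 1.48% and 1.62%.

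Most joints of the 800 kb list beyond the D region carried inserted bases, as in the no-inversion list. Beyond the D region 173 of 192 junctions of the 800 kb list had inserted bases between bait and prey (90.1%, 85.0% to 93.9%), with a median of 11 bases, 8 were blunt and 11 had microhomology (5.73%, 2.89% to 10.0%). The no-inversion list had 88.3% with insertions (83.2% to 92.3%) and the whole-Igh list 81.1% (68.0% to 90.6%). In the D region of the 800 kb list insertions were fewer, at 71.5% (66.1% to 76.4%), and microhomology more common, at 21.5% (17.1% to 26.5%). Inserted bases are all those between the bait and prey ends on the read. Bases of a D segment kept between JH and a prey beyond the D region would thus be counted as inserted. Their part in this difference was not tested, so it is not a measure of how the ends were processed. Past the window 86.7% had insertions (80.5% to 91.5%), and in the segment 8 of 10.

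The JH segment at the bait end differed between libraries. Segments were taken from the annotation, which matched the bait ends poorly for Ighj2. Beyond the D region in the 800 kb list, its bait ends had a median trim of 54 bases against the annotated segment. The other segments had 1 to 2, and the cause was not tested. Pooled, Ighj2 was the bait of 55.7% of the junctions beyond the D region in the 800 kb list (48.4% to 62.9%) and 39.4% in the no-inversion list (32.8% to 46.3%), and Ighj1 of 19.8% (14.4% to 26.1%) against 35.2% (28.8% to 42.0%). In run 115 Ighj1 made up 80.0% and 63.5%, and Ighj2 0 of 20, which allows up to 15.0%, and 2 of 63. In run 119 Ighj2 made up 57.7% and 54.3% and Ighj1 12.6% and 21.9%. The run 115 libraries of the whole-Igh list did not share this pattern, with Ighj2 at 54.5% and 45.8%, and those of run 119 had 26.3% and 62.5%. Its part in the positions was not tested. In run 115 the segment held 5.00% of the 20 junctions of the 800 kb list (0.127% to 24.9%). It held 44.4% of the 63 of the no-inversion list (31.9% to 57.5%).

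**Figure D5:**
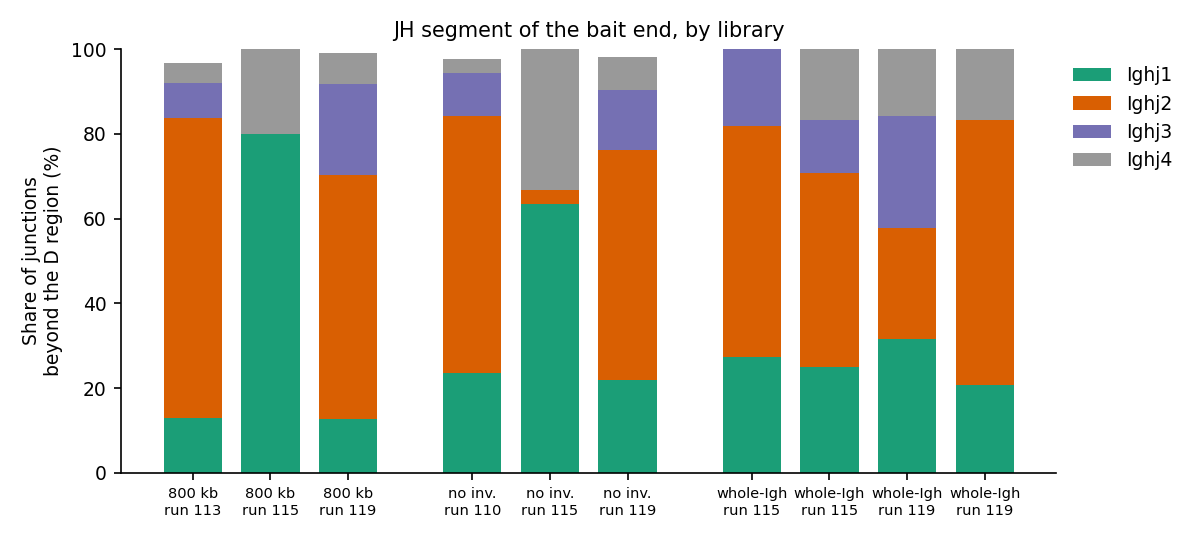
JH segment at the bait end of window junctions beyond the D region, as percent of each library, stacked by segment (Ighj1 to Ighj4), with libraries ordered by list and labelled by run. The run 115 libraries of the 800 kb and no-inversion lists are mostly Ighj1 (80.0% and 63.5%), and the other libraries of those lists mostly Ighj2.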

How the data were processed

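The authors deposited each list as lines of junctions, with positions, strands and read ends but no counts or normalization, per the file headers. Alignment was to mm9 with Bowtie2, per the labels and the submitters' processing notes. How off-target lines were selected and duplicates removed is not given in the sources used here, and that choice decides which junctions can appear.

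Junctions were counted once per chromosome, position, strand and bait end. Regions came from the mm9 gene annotation, with gene names through RefSeq synonyms. Libraries were told by run and by the first 5 bases of the reads. Libraries of a list were taken as 1 source where they shared at least 20% of the smaller one's joints, a rule set after seeing the data. The segment maximises minus less plus junctions. Sites joined positions over gaps of up to 20 bp, and those named were the most used and the called ones by region; sites past the window were named after their values were seen. A call needed 4-fold, with 3 counts for 0. The site and segment finders were run on simulated data. For the segment, the simulated junctions were spread evenly, unlike those of the lists. Error was read against the outermost simulated junctions and not the planted ends, so this cannot show how well ends are placed in sparse data. Python 3.11.15, pandas 2.3.3, numpy 2.4.6, scipy 1.17.1 and matplotlib 3.10.9 were used. The list, its window and the comparisons were chosen with earlier results of these data known.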

Additional observations from a re-analysis of the deposited data

Results flagged for a closer look

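The plus-strand junctions past the end of the window stand out because no comparison of the window uses that stretch. The 800 kb list had 161 there, the no-inversion list 6 and the whole-Igh list 61. The site at 118596806 had 37 of the 161, against 1 and 7.

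Among the 4 libraries of the whole-Igh list, 1 library of run 115 lay far from the others in 2 measures. It had 3.68 junctions on the D side of the segment per 100 in the D region, where the others had 8.47 to 9.19, and 0 of 11 junctions beyond the D region with Ighj4 at the bait end, which allows up to 27.3%, where the others had 15.8% to 16.7%. It had 11 junctions beyond the D region, the fewest of the 4. The 4 are not independent, since each library of run 115 repeats joints of 1 of run 119; joined in this way, the 2 sources had 7.10 and 9.01 on the D side. Chance sets a library apart in about 1 group in 20 for a single measure, and these came from 12 measures, so such a library is more likely by chance than that.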

How the results depend on the processing

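No paired analysis was possible because each condition is 1 pooled list and no test compares the conditions. Values within the runs that lists share are given in its place. Of 167 alternatives over 24 results, 110 stayed within the main value's interval, within 1.5 times of a count or within 50 kb of the segment's length, and 57 did not. Some were chosen after seeing the data: all those on the stretch past the window, the widest stretch with at most 1 plus junction, and shares by position.

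Counting every line gave 4861, 16852 and 6439 window junctions in the 800 kb, no-inversion and whole-Igh lists, and counting positions 405, 385 and 266. Past the window every line gave 336, 14 and 184 plus-strand junctions. The segment's minus share was 100% within run 113 and within run 115, and that beyond it 0% and 28.6%. The widest stretch with at most 1 plus junction was 850.7 kb.

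As shares of the window, by every line the D side, segment and distal part were 4.65%, 0.309% and 2.67% in the 800 kb list and 0.908%, 1.60% and 0.522% in the no-inversion list. Outside the JH and D regions they were 55.2%, 4.72% and 30.7% against 29.6%, 45.7% and 17.4%. By position the D side was 22.5% against 16.6%, and the distal part of the 800 kb list 14.8%. Within run 115 the 800 kb D side was 14.5%, and within run 113 its distal part 7.92%. The distal part of the no-inversion list was 4.21% within run 110 and 10.1% within run 115. In that run the 800 kb value was 8.43%, so the order of the distal shares, 10.5% against 6.76% pooled, was reversed there.

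Sites higher than in the no-inversion list numbered 2 at 2-fold, 0 at 8-fold, 4 with a minimum of 5 and 0 with a minimum of 20, and sites lower 1 at 2-fold and 1 with a minimum of 5. Against the whole-Igh list, sites higher numbered 3, 0, 2 and 0 and, with a gap of 5 bp, 0, and sites lower 2 at 2-fold, 4 with a minimum of 5 and 0 with a minimum of 20. Within 0 to 5 bases CAC stood at 71.5% of positions beyond the D region. CACA stood at 59.7% there and 71.9% past the window, and the full heptamer at 12.5% and 7.44%.

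Leaving out 1 library at a time, which in the no-inversion and whole-Igh lists keeps joints that another library repeats, the 800 kb minus share ranged from 2.56% to 5.88% on the D side, 83.3% to 100% in the segment and 3.45% to 8.51% beyond, with 2.56% to 3.61% for the segment in the no-inversion list and 81.6% to 83.3% for the whole-Igh list beyond the D region. The segment was 483.7 to 637.8 kb long. D side, segment and distal shares of the window were 16.3% to 19.1%, 1.40% to 1.64% and 8.31% to 11% in the 800 kb list, and 10.5% to 12.4%, 17.1% to 18.7% and 5.49% to 6.58% in the no-inversion list. Plus-strand junctions past the window were 85 to 135, 3 to 5 and 49 to 55. Where no cause is given, the cause was not tested. The 10 segment junctions limit what can be said of its strand.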
